A study of Rattus norvegicus with 6 samples.

Results

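The smooth muscle cluster of miR-143 and miR-145 gives 4 mature miRNAs, both arms of the miR-143 stem-loop and both arms of the miR-145 stem-loop, and these (rno-miR-143-3p, rno-miR-143-5p, rno-miR-145-5p and rno-miR-145-3p, written without the species prefix from here on) were taken by name from the table of counts on 763 rat miRNAs in plasma exosomes. All 4 were present in every library, and all 4 were among the 404 miRNAs that passed the filter on low counts. The libraries came from exosomes of control rats that had no RIPC (C-exo, n = 3) and of RIPC rats in its late phase (R-exo, n = 3), where RIPC is remote ischemic pre-conditioning of the hind limbs. In the RIPC rats, elastic bands closed off both hind limbs under anesthesia for 4 cycles of 5 min of ischemia and 5 min of reperfusion, and blood was drawn from the abdominal aorta of both groups 48 h later. All rats were young adult male Sprague-Dawley. Nothing in the labels or methods says whether an RNA sample came from 1 rat or from several. The p-values therefore set the difference between groups against the spread between these samples.

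miRNAs are short RNAs that guide Argonaute proteins to complementary sites in target transcripts and lower their output. Each stem-loop can give a mature strand from its 5′ side (5p) and from its 3′ side (3p), of which usually 1 is kept and the other is degraded. miR-143 and miR-145 are cut from a shared primary transcript that is driven by serum response factor and myocardin in smooth muscle, and they are known for holding vascular smooth muscle cells in the contractile state, with miR-143-3p and miR-145-5p usually described as the kept strands. Plasma itself holds no smooth muscle, and the counts carry no record of the cells that released these vesicles.

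The 4 mature sequences are shown because arms and seeds, the bases that pair first with a target, are what set the members apart. Bases 2 to 8 (the seed) are in capitals, and the sequences are those of RefSeq on the rat assembly GRCr8, written 5′ to 3′.
miR-143-3p: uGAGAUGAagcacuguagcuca
miR-143-5p: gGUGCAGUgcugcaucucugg
miR-145-5p: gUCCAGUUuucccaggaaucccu
miR-145-3p: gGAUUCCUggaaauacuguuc
The 4 members had 4 different seeds, and none of the 692 other mature rat miRNAs in the RefSeq table shared the seed of any member. The closest of those miRNAs lay 8 edits (substituted, inserted or missing bases) from miR-143-3p, 7 from miR-143-5p, 9 from miR-145-5p and 6 from miR-145-3p. No near-identical mature miRNA that could share reads with a member was therefore in that table.

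In GRCr8 the miR-143 stem-loop lies at chr18:57371349-57371453 and the miR-145 stem-loop at chr18:57369983-57370070, both on the minus strand with 1278 bases between them. Both lie within the span of 1 annotated gene, Carmn, a long non-coding RNA that is also named Mir143hg as the host of miR-143. The labels list the build rn6, and the table of counts carries no coordinates, so the positions describe the RefSeq sequences only. The stem-loops are shown with both mature arms in capitals, the 5p arm first, since the arm ratios below compare the reads from these stretches.
Mir143: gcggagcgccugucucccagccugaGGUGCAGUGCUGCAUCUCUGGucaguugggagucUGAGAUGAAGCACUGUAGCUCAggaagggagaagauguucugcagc
Mir145: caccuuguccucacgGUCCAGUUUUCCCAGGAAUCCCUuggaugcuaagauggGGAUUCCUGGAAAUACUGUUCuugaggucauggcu

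Reads counted on miRNAs numbered 5484209 to 7531737 in C-exo and 6982273 to 7380752 in R-exo. Levels are given as CPM, counts scaled to a common library size with TMM factors, and 3 counts correspond to 0.369 to 0.672 CPM, far below every member. Reads copied by PCR and carrying no molecular identifiers are not independent molecules, so the intervals given for counts cover counting error alone. The C-exo libraries were not alike. Across the 404 miRNAs, C-exo replicate 3 had Spearman correlations of 0.965 to 0.983 with the R-exo libraries but of 0.902 and 0.931 with the other C-exo libraries. The results on each member are therefore also given without it. C-exo replicate 3 was picked from these same counts for its likeness to R-exo. Leaving it out tends to widen the differences between groups over all miRNAs, so those results are a description and no support for a difference. In C-exo replicates 1 and 2 the 10 most abundant miRNAs took 68.3% and 66.0% of all reads, and 471 and 494 miRNAs were detected, against 52.3% to 54.6% and 530 to 544 miRNAs in the other 4 libraries.

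miR-143-3p was the dominant product of the cluster and one of the most abundant miRNAs in plasma exosomes. C-exo replicates 1, 2 and 3 held 10778, 42747 and 55438 CPM of it, and R-exo replicates 1, 2 and 3 held 42361, 78879.5 and 87678 CPM. C-exo replicate 1 was far below the other 5 libraries, and the groups overlapped because C-exo replicates 2 and 3 exceeded R-exo replicate 1. By count miR-143-3p ranked 18, 8 and 5 among all miRNAs across C-exo and 5, 3 and 1 across R-exo, so that it was the top miRNA of R-exo replicate 3. As a share of all counts it was lowest in C-exo replicate 1, at 0.877% (Wilson 95% interval 0.869% to 0.885%), and highest in R-exo replicate 3, at 9.01% (8.98% to 9.03%). It made up between 93.8% and 98.4% of the counts of the cluster in every library.

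miR-143-3p averaged 69639.6 ± 24029.7 CPM across R-exo against 36321 ± 23013 CPM across C-exo (SD, n = 3 each). Its log2 fold change of R-exo over C-exo was 0.94 (standard error 0.59), with an unadjusted p of 0.14 and a Benjamini-Hochberg adjusted p of 0.51 over 404 miRNAs by the quasi-likelihood method of edgeR. The difference was smaller than the spread within C-exo, where the highest library had 5.14 times the level of the lowest, against 2.07 times in R-exo. Without C-exo replicate 1 the log2 fold change was 0.46 (adjusted p = 0.90, edgeR), and without C-exo replicate 3 it was 1.39 (adjusted p = 0.0497, edgeR).

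miR-143-5p, the strand of the same stem-loop that is usually degraded, was the rarest member. It had 104, 270.1 and 49.5 CPM across C-exo and, across R-exo, 67.2, 77.8 and 88.8 CPM. C-exo replicate 2 was the highest library and C-exo replicate 3 the lowest, so the R-exo libraries all lay within the range of C-exo. The lowest of these values rested on 348 reads (exact Poisson 95% interval 312 to 387), a counting error much smaller than the spread between libraries. It averaged 77.9 ± 10.8 CPM across R-exo against 141 ± 115 CPM across C-exo (SD, n = 3 each), and the fitted log2 fold change was -0.86 with a standard error of 0.60 (edgeR, adjusted p = 0.51). Its sign turned with 1 library: without C-exo replicate 2 it was 0.055, and without C-exo replicate 3 it was -1.25 (adjusted p = 0.0499, edgeR).

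miR-145-3p was the second most abundant member. Its level was 376, 1457 and 806 CPM across C-exo and, across R-exo, 499, 859 and 983 CPM. Both the highest and the lowest library were C-exo libraries, replicates 2 and 1. It averaged 781 ± 251 CPM across R-exo against 879.7 ± 544 CPM across C-exo (SD, n = 3 each), and the fitted log2 fold change was -0.17 with a standard error of 0.56 (edgeR, adjusted p = 0.89). The sign was not stable, with 0.45 without C-exo replicate 2, 0.080 without R-exo replicate 1 and -0.22 without C-exo replicate 3.

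miR-145-5p, the strand usually described as the active one of miR-145, was less abundant than its partner arm in every library. It had 233, 447 and 239.5 CPM across C-exo and, across R-exo, 469, 311 and 378 CPM. C-exo replicates 1 and 3 were the lowest libraries, and C-exo replicate 2 lay among the R-exo libraries. It averaged 386 ± 79.2 CPM across R-exo against 307 ± 122 CPM across C-exo (SD, n = 3 each), and the fitted log2 fold change was 0.33 with a standard error of 0.45 (edgeR, adjusted p = 0.73). Leaving out each library in turn gave values from 0.077, without C-exo replicate 1, to 0.75, without C-exo replicate 2. Without C-exo replicate 3 it was 0.19.

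**Figure D1:**
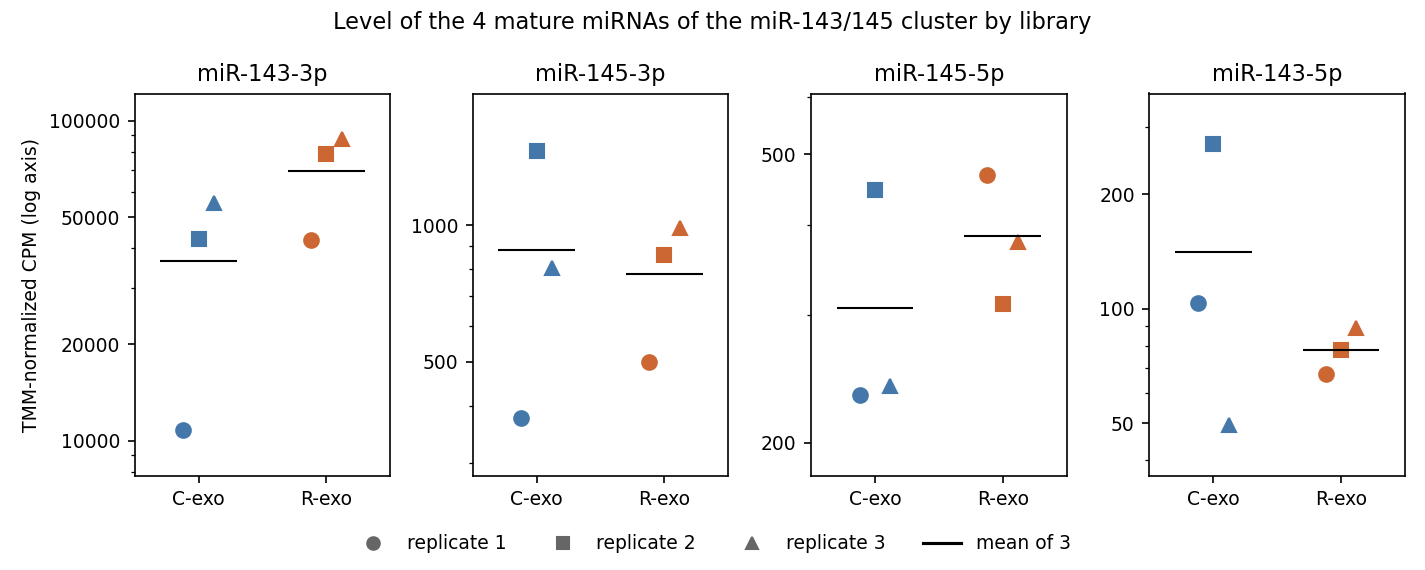
TMM-normalized CPM on a log axis (each panel has its own range) for the 4 mature miRNAs in the 3 C-exo and 3 R-exo libraries; marker shapes give the replicate number and lines the mean of 3. miR-143-3p is lowest in C-exo replicate 1, at 10778 CPM, and for every miRNA the groups overlap.

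None of the 4 members had an adjusted p under 0.05 between R-exo and C-exo, and none had an unadjusted p under 0.05 in the quasi-likelihood fit by group alone. With the replicate number added to that fit as a block, miR-143-3p had a log2 fold change of 1.17 with an unadjusted p of 0.046 and an adjusted p of 0.46 (edgeR). The labels number the replicates within each group and name no pairing between groups, so the block may be arbitrary. Over all 404 miRNAs, 0 (0%) had an adjusted p under 0.05 in edgeR's quasi-likelihood test, in edgeR's exact test, in DESeq2 and in limma-voom, and 38 (9.41%) had an unadjusted p under 0.05 in the quasi-likelihood test. In the fit by group alone no member met a fold change over 2 together with an unadjusted p under 0.05, a rule that 1.98% of the tested miRNAs met with R-exo higher and 7.43% with R-exo lower (8 and 30 miRNAs, but 18 and 15 with scaling by library size alone). With the block miR-143-3p met it, as did 6.19% of the tested miRNAs with R-exo higher, while 3.22% met it with R-exo lower (25 and 13 miRNAs). No member had a log2 fold change above 1 in the fit by group alone with TMM scaling, while 10.1% of the tested miRNAs did. miR-143-3p had 1.01 with scaling by library size alone, 1.18 with limma-voom and 1.17 with the block. The groups overlapped for all 4 members, whereas over all tested miRNAs R-exo lay above C-exo without overlap in 4.95% and below it in 7.92%. The log2 fold change was above 0 for miR-143-3p and miR-145-5p and below 0 for the other 2, beside 48.8% of all tested miRNAs above 0. Whether fewer vesicles from a cell type or less of the miRNA per vesicle underlies a low level cannot be told apart in such samples.

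Without C-exo replicate 3, the fit of the remaining 5 libraries called both arms of miR-143, in opposite directions, and neither arm of miR-145. Such calls were common in that fit, where the library left out had been picked for its likeness to R-exo. An adjusted p under 0.05 was reached by 132 of 422 miRNAs (31.3%), 17.3% higher in R-exo and 14.0% lower, and miR-143-3p and miR-143-5p ranked 129 and 131 by p, at the edge of the threshold. With any other library left out, no adjusted p of a member was under 0.05.

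**Figure D2:**
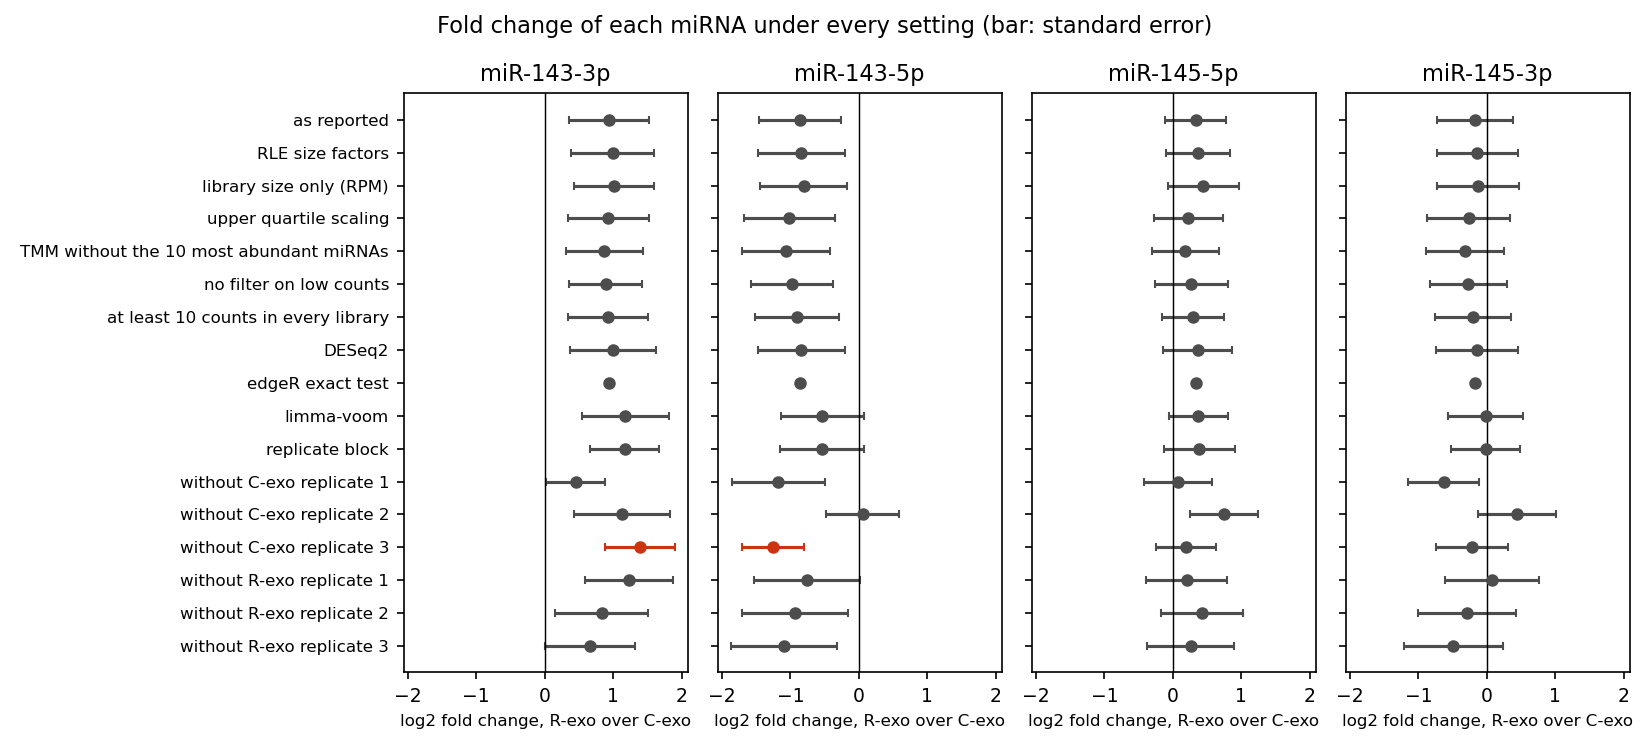
log2 fold change of R-exo over C-exo for each miRNA as reported and under 16 alternatives, with bars of 1 standard error (none for edgeR's exact test); red marks an adjusted p under 0.05. Red points appear only for both arms of miR-143 without C-exo replicate 3, and only miR-143-5p and miR-145-3p have points on both sides of 0.

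Within libraries the order of the members was the same throughout. miR-143-3p exceeded miR-145-3p in 6 of 6 libraries, by 28.7 to 91.8 times. miR-145-3p exceeded miR-145-5p in 6 of 6, by 1.06 to 3.37 times, and miR-145-5p exceeded miR-143-5p in 6 of 6, by 1.65 to 6.97 times. The order was read from these same counts and is given as a description with no test. In R-exo replicate 1 the arms of miR-145 were close, at 3808 reads for 5p and 4055 for 3p. The mature lengths are 21 to 23 bases, and neither length nor unequal ligation of adaptors to different sequences was tested.

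The arm ratio of a stem-loop compares strands that were cut from the same precursor and needs no scaling between libraries. For miR-143 the 3p arm was 104, 158 and 1118 times the 5p arm in C-exo replicates 1, 2 and 3, and 629.6, 1013 and 987 times in R-exo replicates 1, 2 and 3. C-exo replicates 1 and 2, the libraries with the largest share of counts in few miRNAs, were the lowest and C-exo replicate 3 was the highest of all, so the groups overlapped. The part of that share in the ratio was not tested. The mean log2 ratio was 9.74 ± 0.39 in R-exo and 8.04 ± 1.83 in C-exo (SD, n = 3 each), a difference of 1.70 with an exact two-sided permutation p of 0.4 (0.6 after adjustment over 4 ratios). The smallest p that 3 libraries against 3 allow is 0.1. Without C-exo replicate 3 the difference was 2.74 without overlap (exact permutation p = 0.2, the smallest that 3 against 2 allow), and without C-exo replicate 1 it was 1.03.

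For miR-145 the 5p arm was 0.621, 0.307 and 0.297 times the 3p arm across C-exo and 0.939, 0.362 and 0.385 times across R-exo. The libraries with the highest ratio were replicate 1 of each group, and the groups overlapped. The mean log2 ratio was -0.98 ± 0.77 in R-exo and -1.38 ± 0.60 in C-exo (SD, n = 3 each), a difference of 0.40 (exact two-sided permutation p = 0.5, adjusted 0.6). Without R-exo replicate 1 the difference was -0.041, and without C-exo replicate 3 it was 0.22.

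Arm ratios differed between libraries for many miRNAs. Of the 404 tested miRNAs, 110 stem-loops had both arms tested, and the median size of the difference in mean log2 arm ratio between groups was 0.72. The mean ratio differed by over 2-fold for 28.2% of them, including miR-143 but not miR-145. By the size of this difference miR-143 ranked 11 of 110 and miR-145 ranked 83, and by the range over the 6 libraries they ranked 27 and 78. The groups did not overlap for 14.5% of the 110 stem-loops, which did not include miR-143 or miR-145. Without C-exo replicate 3 the libraries did not overlap for 63.6% of the stem-loops, so the separation of miR-143 in that fit was shared with most of them. The more abundant arm over the other was higher in R-exo for 52.7%, including miR-143 but not miR-145.

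**Figure D3:**
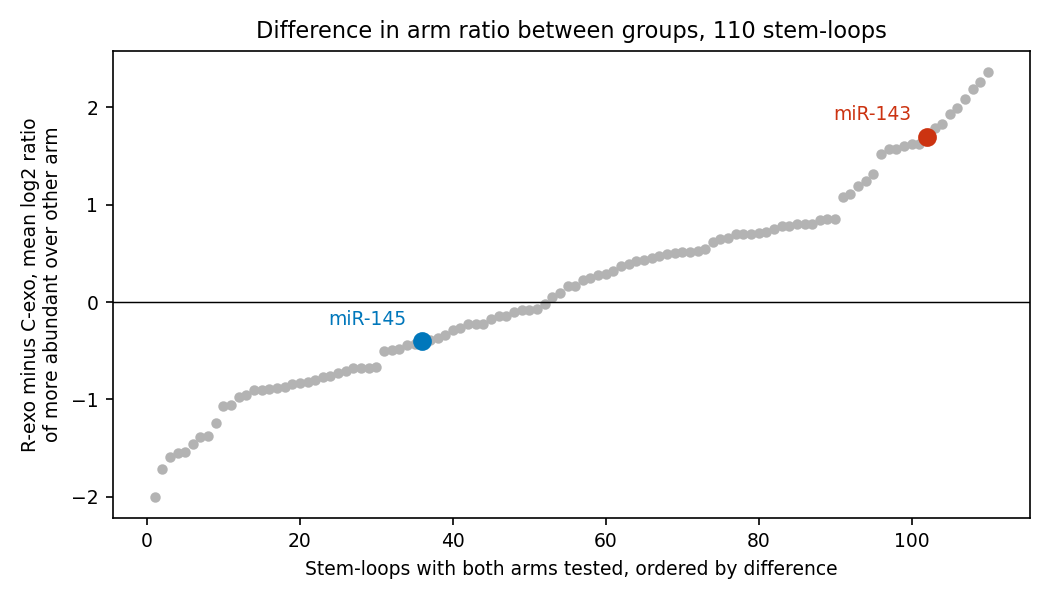
Difference between groups (mean of R-exo minus mean of C-exo) in the log2 ratio of the more abundant arm over the other, for 110 stem-loops in order of the difference; for miR-145 the more abundant arm is 3p. miR-143 lies at 1.70, toward the upper end, and miR-145 at -0.40, below the median of 0.16.

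The partner ratios compare products of different stem-loops of the shared transcript. miR-143-3p was 46.2, 95.6 and 231 times miR-145-5p across C-exo and 90.3, 253.6 and 232 times across R-exo. C-exo replicate 1 was the lowest and the groups overlapped. The mean log2 ratio was 7.45 ± 0.82 in R-exo and 6.65 ± 1.16 in C-exo (SD, n = 3 each), a difference of 0.79 (exact two-sided permutation p = 0.4, adjusted 0.6), which was 0.23 without C-exo replicate 1 and 1.39 without C-exo replicate 3. For the other arms, miR-143-5p was 0.276, 0.185 and 0.0615 times miR-145-3p across C-exo and 0.135, 0.0906 and 0.0903 times in R-exo. Here C-exo replicate 1 was the highest and C-exo replicate 3 the lowest library. The mean log2 ratio was -3.27 ± 0.33 in R-exo and -2.77 ± 1.12 in C-exo (SD, n = 3 each), a difference of -0.50 (exact two-sided permutation p = 0.6, adjusted 0.6). It was -0.047 without C-exo replicate 1 and -1.13 without C-exo replicate 3.

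A further ratio, between the more abundant arms of both stem-loops, was added after the counts had been seen and is given as a description without a test. miR-143-3p was 28.7, 29.3 and 68.8 times miR-145-3p in C-exo replicates 1, 2 and 3, and 84.8, 91.8 and 89.2 times in R-exo replicates 1, 2 and 3. The R-exo libraries were nearly equal and all lay above the C-exo libraries, of which replicate 3 was the closest. The mean log2 ratio was 6.47 ± 0.057 in R-exo and 5.27 ± 0.72 in C-exo (SD, n = 3 each), a difference of 1.20 that was 0.98 to 1.61 with each library left out in turn. Of the ratios of miR-143-3p to each of the 403 other tested miRNAs, 10.7% had R-exo above C-exo without overlap, so a ratio with this order was not rare.

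**Figure D4:**
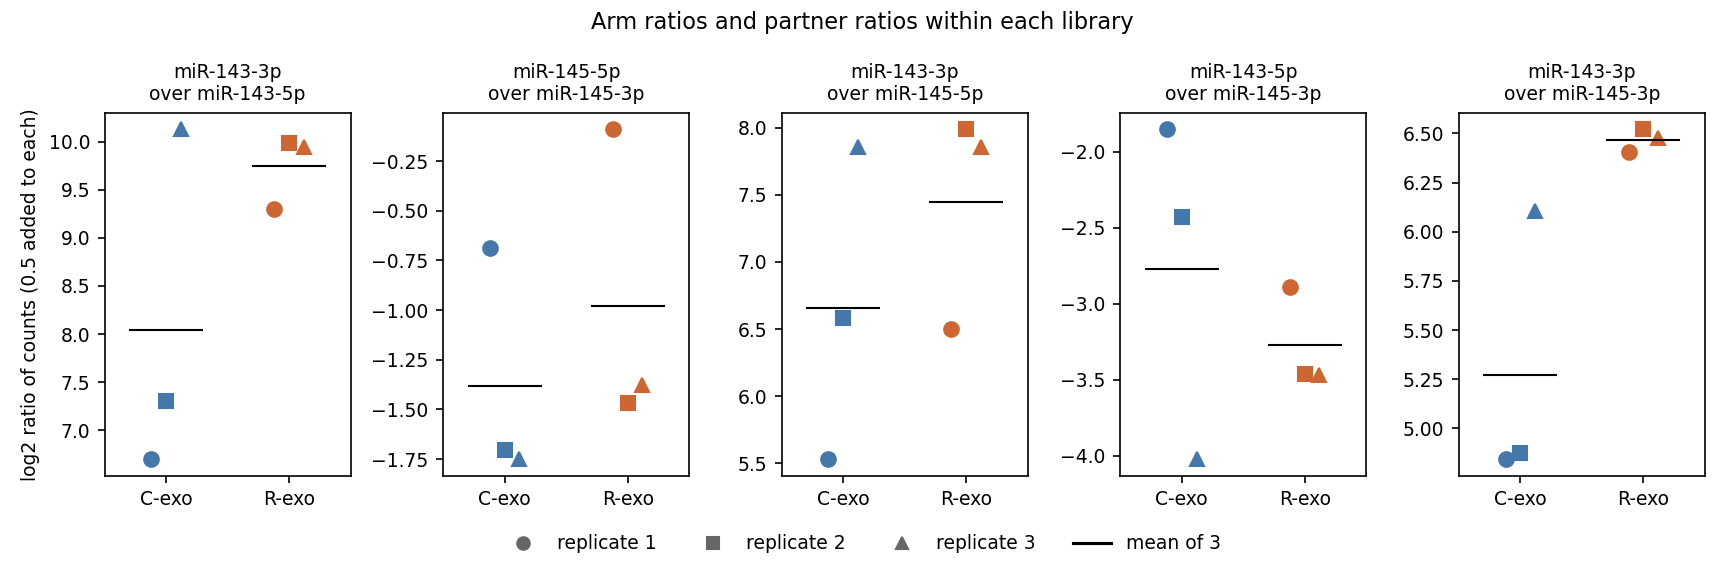
log2 ratio of counts (0.5 added to each) within each of the 3 C-exo and 3 R-exo libraries for the arm ratios and partner ratios; marker shapes give the replicate number, lines the mean of 3, and each panel has its own range. The groups overlap in every panel but the last, where miR-143-3p over miR-145-3p is 6.41 to 6.52 in R-exo and 4.84 to 6.10 in C-exo.

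The profiles of the members over the 6 libraries were compared as the root mean square difference of log2 CPM after the mean of each miRNA was subtracted, which describes likeness and is not a test. The 6 libraries share their scaling and their groups. The miRNA nearest to miR-143-3p was miR-10a-3p (0.30), followed by miR-101a-3p (0.48) and the endothelial miR-126a-3p (0.50). miR-10a-3p, the strand of miR-10a that is usually degraded, had 14.1, 37.5 and 81.6 CPM across C-exo and, across R-exo, 66.2, 101 and 85.3 CPM. It was thus also lowest in C-exo replicate 1. miR-145-3p was 53rd of 403 in nearness to miR-143-3p, miR-145-5p was 123rd and miR-143-5p, from the same stem-loop, was 259th. Seen from those members, miR-143-3p was 66th from miR-145-3p, 237th from miR-145-5p and 305th from miR-143-5p.

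Nearest to miR-145-5p were miR-1843b-3p (0.13), miR-511-3p (0.24) and miR-100-5p (0.28). miR-1843b-3p was very rare, at 0.896 to 1.79 CPM. miR-100-5p, a miRNA common in fibroblasts and other mesenchymal cells, had 1571, 3129 and 2637 CPM across C-exo and, across R-exo, 2887, 2277 and 3388 CPM. As with miR-145-5p, C-exo replicate 1 was its lowest library. Seen from miR-145-5p, its own partner arm miR-145-3p was 98th of 403 in nearness, and seen from miR-145-3p, miR-145-5p was 29th.

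A list of 12 miRNAs linked to the phenotype of vascular smooth muscle is given beside these levels. It is not specific to the vessel wall, since it shares members with the heart and skeletal muscle list below. All 12 were tested, 5 had a log2 fold change above 0 and none had an unadjusted p under 0.05. Their median log2 fold change was -0.14, against -0.05 over all tested miRNAs. The members with the smallest p were miR-155-5p, known from inflammation, with a log2 fold change of 1.05, miR-21-5p, which is raised in injured vessels, with 1.04, miR-26a-5p with 1.21 and miR-221-3p, which favors proliferation, with -0.79. Their adjusted p values in edgeR were 0.50 to 0.51. miR-21-5p had 6378, 6349 and 26262 CPM across C-exo and, across R-exo, 21927, 26969.6 and 31319 CPM. As for miR-143-3p, C-exo replicate 1 was low and C-exo replicate 3 lay among the R-exo libraries, but C-exo replicate 2, which was low for miR-21-5p, was not low for miR-143-3p.

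Of 10 mesenchymal and fibroblast miRNAs, 9 were tested, and 2 of these had an unadjusted p under 0.05, both lower in R-exo, beside 9.41% of all tested miRNAs in either direction. They were miR-127-3p, of the imprinted Dlk1-Dio3 locus, with a log2 fold change of -1.26, and miR-125b-5p, at -1.09 (edgeR, adjusted p = 0.46 for each). miR-99a-5p had -0.75 (adjusted p = 0.47) and miR-214-3p had 0.37 (adjusted p = 0.74) in the same test. The median of the list was 0.08. Its summed level was 43308 to 51924 CPM across C-exo and 30279 to 40537 CPM across R-exo. Much of this sum was miR-99a-5p, with 22458 to 34331 CPM across C-exo and 14738 to 20352 CPM across R-exo, and 5 of the 9 tested members had a log2 fold change above 0.

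Markers of other sources also varied between these libraries, and their part in the values of miR-143 and miR-145 was not tested. The summed level of 4 red cell miRNAs was 198074, 92396 and 69273 CPM in C-exo replicates 1, 2 and 3 and 44536 to 74959 CPM in R-exo, highest in C-exo replicate 1, where miR-143-3p was lowest. Nearly all of that sum was miR-486, with 195795 CPM in C-exo replicate 1 and a log2 fold change of -1.07 (edgeR, adjusted p = 0.47). The order of the sum did not hold for miR-451-5p, which is abundant in red cells and was lowest in C-exo replicate 1, at 2023 CPM against 2060 to 6239 CPM elsewhere, with a log2 fold change of 0.37 (edgeR, adjusted p = 0.76). Of these 4, miR-144-3p and miR-144-5p had an unadjusted p under 0.05, as did 9.41% of all tested miRNAs, with log2 fold changes of 1.07 and 1.63 (edgeR, adjusted p = 0.46 for each). The 2 endothelial miRNAs, miR-126a-3p and miR-126a-5p, summed to 4722, 7336 and 16771 CPM in C-exo replicates 1, 2 and 3 and to 20585 to 30331 CPM in R-exo, again lowest in C-exo replicate 1. miR-126a-3p had a log2 fold change of 1.34 (unadjusted p = 0.029, adjusted p = 0.46, edgeR).

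Of the remaining lists, none of the tested members had an unadjusted p under 0.05. The 8 heart and skeletal muscle miRNAs summed to 2192 to 9831 CPM across C-exo and 1808 to 6112 CPM across R-exo, with a median log2 fold change of 0.11 over the 8 tested. miR-208a-3p, specific to heart muscle, was at 0 counts in C-exo replicate 1 and between 0.896 and 5.94 CPM in the other libraries. The 5 platelet and leukocyte miRNAs summed to 15255 to 44182 CPM across C-exo and 23028 to 42981 CPM across R-exo, with a median of 0.03. Of the 4 liver miRNAs, 3 were tested, with a median of -0.01 and sums of 79866 to 109252 CPM across C-exo and 76441 to 81304 CPM across R-exo. Of the 8 miRNAs of gut epithelium, 7 were found and tested, with a median of 0.89 and sums of 43919.6 to 52214 CPM across C-exo and 47191 to 49973 CPM across R-exo. Both the liver and the gut list hold miR-192-5p and miR-194-5p. The gut sum was almost wholly miR-192-5p, with 40969 to 51287 CPM across C-exo and 45025 to 46922 CPM across R-exo. That sum says little of the other 6 gut miRNAs. Of the 7 tested gut miRNAs, 6 had a log2 fold change above 0, beside 48.8% of all tested miRNAs. miR-192-5p was the other, at -0.01.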

How the data were processed

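Small RNA libraries of plasma exosomes (3 C-exo, 3 R-exo) were read by Illumina HiSeq. What the authors deposited are raw counts per mature rat miRNA, not normalized, with 1 column per library; per the labels bcl2fastq, BWA and the build rn6 were used, with no versions or roles, and trimming and the treatment of reads matching several miRNAs are not given in the sources used here. Members and lists were chosen with earlier results of these data known.

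The main analysis used edgeR 4.0.16 (R 4.3.3): filterByExpr (minimum count 10, total 15), TMM, quasi-likelihood test of R-exo against C-exo. Standard errors were taken from the fold change and its F statistic; log2 CPM used a prior count of 2. Ratios were taken within libraries with 0.5 added to each count and compared by exact permutation (Python 3.11.15, scipy 1.17.1). Totals were 5484209 to 7531737 reads per library, and no pair of libraries agreed within sampling noise. The edgeR quasi-likelihood fit was tried on simulated counts with known changes. Those counts did not carry the likeness of C-exo replicate 3 to R-exo.

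Alternatives were other scalings and filters, limma-voom (limma 3.58.1), DESeq2 1.42.0, the exact test of edgeR, each library left out and the replicate number as a block. Names were set by rule: the 4 members, up to 4 miRNAs per list by smallest p, miRNAs with a shared seed, and the 3 nearest profiles for miR-143-3p and miR-145-5p. Sequences are from RefSeq (GRCr8): all 4 members and 686 of 763 table names matched.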

Additional observations from a re-analysis of the deposited data

How the results depend on the processing

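With all 6 libraries kept, no alternative turned the sign of a member or brought its adjusted p under 0.05. Over those 10 alternatives the log2 fold change of miR-143-3p was 0.87 to 1.18 (adjusted p = 0.43 to 0.54), that of miR-143-5p -1.06 to -0.53 (0.42 to 0.65), that of miR-145-5p 0.18 to 0.45 (0.65 to 0.86) and that of miR-145-3p -0.32 to -0.012 (0.78 to 0.99), from edgeR, DESeq2 or limma. Deviations of same-numbered libraries correlated at 0.33, -0.28 and 0.28 across miRNAs, and those of differently numbered libraries at -0.50 to 0.42. With 3 libraries per group these values cannot settle whether the replicate numbers mark pairs. With the replicate block the log2 fold changes were 1.17, -0.53, 0.39 and -0.018 for miR-143-3p, miR-143-5p, miR-145-5p and miR-145-3p, and the smallest p of a member was that of miR-143-3p, 0.046 unadjusted and 0.46 adjusted (edgeR); the block left the means of the ratios as they were. Leaving out single libraries gave ranges of 0.46 to 1.39 for miR-143-3p, -1.25 to 0.055 for miR-143-5p, 0.077 to 0.75 for miR-145-5p and -0.63 to 0.45 for miR-145-3p, which was 0.45 without C-exo replicate 2 and 0.080 without R-exo replicate 1. The difference in the arm ratio of miR-145 ranged from -0.041, without R-exo replicate 1, to 0.75; the other ratios kept their sign in every setting. Over all miRNAs, 38 had both an unadjusted p under 0.05 and a difference over 2-fold, 63 did so without the filter on low counts, where 598 were tested, and 15 to 182 with each library left out; 0 to 132 then had an adjusted p under 0.05. The cause of these changes was not tested. Scaling by library size alone moved the median log2 fold change of all tested miRNAs from -0.05 to 0.10. The lowest count of a member in any library was 348, and the effect of depth was not tested.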
